A study of Mus musculus with 13 samples.

Results

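The crypt epithelial cells described here were drawn from 3 droplet-based single-cell libraries of mouse colon mucosa taken next to tumors, and 2885 of the 25021 retained barcodes of these libraries were members (458, 1180 and 1247 in mucosa 1, 2 and 3), of 118892 retained barcodes in the whole series. Members were chosen by counts of unique molecular identifiers (UMIs), each of which marks 1 captured RNA molecule. A member had at least 10 UMIs of Epcam, Krt8 and Krt18, which epithelial cells express, none of Ptprc, the pan-leukocyte gene, and at least 3 of the crypt genes Cftr and Aldh1b1. It also had under 10 UMIs of the mucin gene Muc2, under 4 of the proliferation genes Mki67 and Top2a, under 5 of the surface genes Cyp2c55, Tmigd1 and Slc51a, under 5 of Clca4b, Tgm3 and Atp12a, under 5 of the enteroendocrine genes Chga and Chgb, and under 4 of the tuft genes Dclk1, Trpm5, Avil and Sh2d6. Values of these gate genes are descriptions only.

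The series examined tumors and adjacent mucosa of mice that carry the Apc Min allele, a truncating Apc mutation that gives intestinal tumors, together with p16cis/cis, an engineered change at the p16 promoter that draws DNA methylation to it. All 13 libraries came from 3 C57BL/6J mice of the genotype ApcMin/+; p16cis/cis on a supplemented diet, so the mucosa carries both alleles and no other diet can be compared. Mucosa 1 and tumors 1 to 4 came from mouse C (20 weeks), mucosa 2 and tumors 5 to 8 from mouse A (24 weeks), and mucosa 3 and tumors 9 and 10 from mouse B (23 weeks). Mucosa was dissociated with EDTA and TrypLE, and tumors with an enzymatic tumor kit, so tissue and dissociation cannot be told apart. The position along the colon is not given in the labels.

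The mucosa libraries held 84883382 to 116133079 UMIs, and the members had a median of 21139.5, 9472.5 and 13373 UMIs in mucosa 1, 2 and 3. Pairs of libraries shared 15 to 61 barcodes, and 0 to 6 members per pair had a barcode also called in another library. The labels name 7 libraries as female, yet Xist, which the inactive X chromosome expresses, was at most 0.129 counts per 1000000 UMIs (CPM) in all 13 libraries and Y-linked genes summed to 104 to 126 CPM, so sex was not used. Nothing in the labels says that the samples of 1 mouse are independent. The p-values of the tumor comparison below measure the spread between libraries. Those of the splits within mucosa measure how far the difference within a library varied between libraries.

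The colonic crypt is a gland whose base holds Lgr5-expressing stem cells maintained by Wnt signals. Their daughters divide while moving upward and become absorptive or secretory, a choice set by Notch signaling and the transcription factor Atoh1. Chloride and fluid secretion takes place mainly in the crypt, through the chloride channel Cftr, while absorption takes place mainly in mature cells nearer the surface.

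The markers given for this population that the gate did not use were detected. Sult1a1, a sulfotransferase of phenols, was at 231, 263 and 418 CPM in mucosa 1, 2 and 3. Nox1, the superoxide-producing oxidase of colonic epithelium, was at 77.4, 48.2 and 50.9 CPM, and Lgr5 at 28, 11.8 and 13.4 CPM. All of these were measured in every library, with Lgr5 the lowest. At least 1 Lgr5 UMI was found in 31.4%, 10.1% and 13.3% of members, and in 12.9%, 5.94% and 6.67% after each cell was thinned to 5000 UMIs. T cells of the same libraries, which should lack Lgr5, had it in 0 of 1223, 0 of 729 and 0 of 1473 cells, at median depths of 3686, 1451 and 1836 UMIs. Cycling cells, defined below, had Lgr5 in 28.9%, 11.8% and 14.9% of cells, or 8.62%, 5.12% and 4.90% after thinning. Absorptive cells, also defined below, had it in 0%, 0.424% and 0.295%, but had Sult1a1 in 49.3%, 39.5% and 46.3%. Detection alone therefore did not set the members apart from cycling cells. The gate genes themselves were at 115, 114 and 120 CPM for Cftr and 306, 484 and 404 CPM for Aldh1b1, a mitochondrial aldehyde dehydrogenase.

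Lgr5 and Nox1 were higher just inside the cut at 3 UMIs of Cftr and Aldh1b1 than just outside it in each library. The Nox1 difference was small in mucosa 1, and Sult1a1 did not share the pattern. Members with exactly 3 such UMIs (46, 248 and 182 cells) had Lgr5 at 8.16, 5.08 and 8.47 CPM, and otherwise eligible cells with 2 (41, 283 and 157 cells) had 5.83, 3.08 and 4.95 CPM. Nox1 was at 45.5, 31.3 and 43.8 CPM just inside and at 43.7, 22 and 27.5 CPM just outside. Sult1a1 was at 212, 251 and 391 CPM just inside and at 350, 248 and 357 CPM just outside, so in mucosa 1 it was lower inside. Members made up 17.5%, 15.1% and 21.9% of epithelial barcodes in mucosa 1, 2 and 3 (exact 95% binomial intervals 16.1 to 19.0, 14.3 to 15.9 and 20.8 to 23.0, which cover counting error only), a share set by these cuts.

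Members lay further below cycling cells in mitosis genes than in DNA replication genes. The gate split these groups on the proliferation genes Mki67 and Top2a, so a low mitosis level is no test of the non-cycling label. The cycling cells set beside the members met the same crypt criteria with at least 4 UMIs of Mki67 and Top2a (2353 cells). They were deeper than members, with medians of 32216, 14684 and 21589 UMIs, and the cut was on raw UMIs. Summed over 14 mitosis genes outside the gate, members were at 330, 630 and 479 CPM and cycling cells at 2534, 2876 and 2995 CPM. Summed over 17 DNA replication genes, members were at 808, 1058 and 829 CPM and cycling cells at 1258, 1387 and 1408 CPM. The members therefore held most of the replication level of the cycling cells and a small part of their mitosis level. Within the members, 49.8%, 43.0% and 51.2% of cells had no UMI of Mki67 or Top2a.

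Populations gated from the same cells are compared by size only, with no test, because the gates chose them on the same counts. A gene was counted when it differed at least 2-fold the same way in all 3 libraries, among genes of at least 20 CPM in the higher population. Against cycling cells, 155 of 5094 genes were lower in members (3.04%) and 1 was higher (0.0196%), 3.06% in either direction. Of the mitosis genes 13 of 14 were lower, and of the replication genes 2 of 14. Nusap1, a spindle protein, was at 2.2, 7.87 and 2.83 CPM in members and 125, 145 and 135 CPM in cycling cells. Prc1, which bundles the microtubules of the midzone, was at 3.31, 12.0 and 4.25 CPM against 135, 187 and 153 CPM. The linker histone gene Hist1h1b was at 14.0, 72.3 and 31.6 CPM against 384, 1193 and 967 CPM. Each of these was more than 10 times higher in cycling cells of every library.

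Replication genes differed less. The sliding clamp gene Pcna was at 98.9, 115 and 107 CPM in members and 147, 138 and 178 CPM in cycling cells. Mcm6, a subunit of the replicative helicase, was at 67.9, 90.7 and 66.6 CPM against 82.7, 86.5 and 83.7 CPM, and in mucosa 2 it was higher in members. Rrm2, the regulated subunit of ribonucleotide reductase, was at 6.31, 23.4 and 12.4 CPM against 41.1, 65.7 and 54.0 CPM. The gene higher in members was Guca2a, which encodes guanylin, an activator of the epithelial guanylate cyclase, with 50.1, 101 and 50.4 CPM against 23.4, 49.8 and 25 CPM.

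Stem and Wnt target genes, summed over 22 genes, were at 1410, 1307 and 1333 CPM in members, somewhat above cycling cells (1259, 1178 and 1148 CPM) and further above absorptive cells (287, 279 and 251 CPM) and goblet cells (706, 771 and 845 CPM). The absorptive cells were epithelial barcodes with at least 5 UMIs of the surface genes in the gate (2264 cells, of which 67 in mucosa 1), and the goblet cells had at least 10 Muc2 UMIs (3773 cells). Ribosome biogenesis genes lay below cycling cells and above absorptive and goblet cells in every library, at 3252, 3608 and 3324 CPM in members, 3389, 4088 and 3722 CPM in cycling cells, 299, 478 and 448 CPM in absorptive cells and 1360, 1483 and 1365 CPM in goblet cells.

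**Figure D1:**
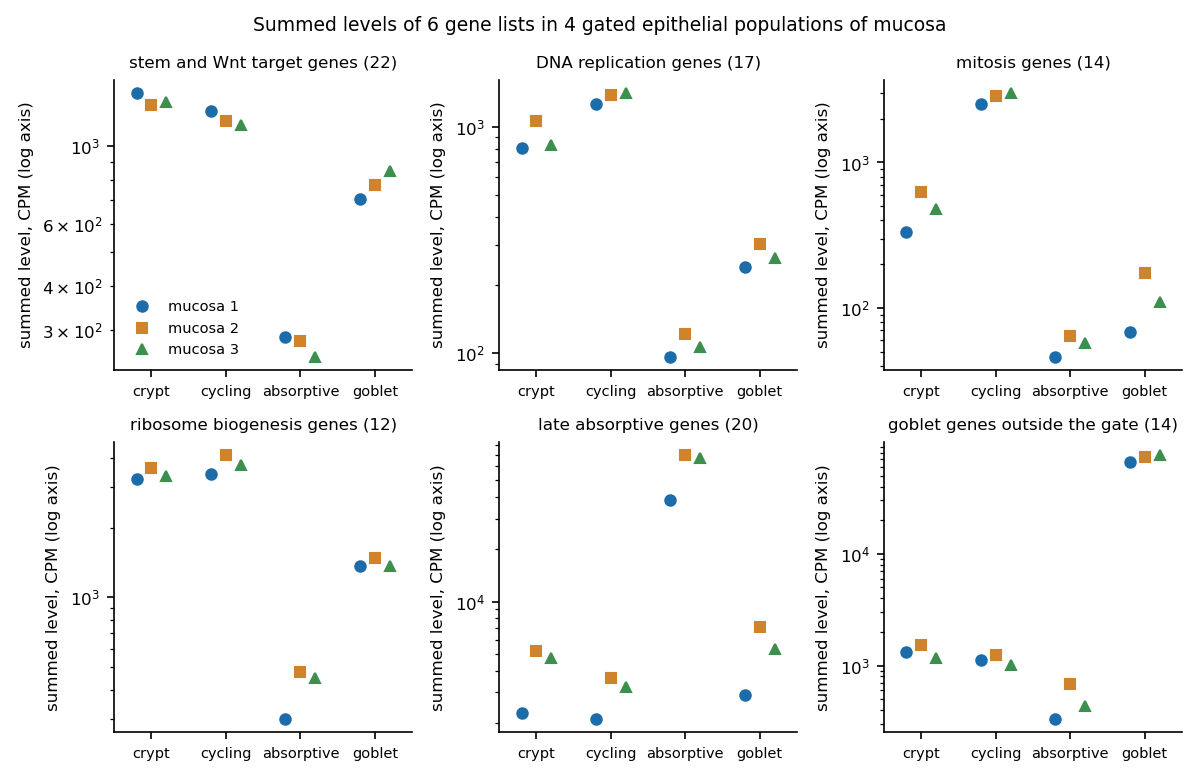
Summed level in CPM (log axis) of 6 gene lists in crypt cells and in cycling, absorptive and goblet cells, with 1 point for each of the 3 mucosa libraries and the number of genes in each list in brackets. Crypt cells sit beside cycling cells for stem and ribosome biogenesis genes but at 330 to 630 CPM against 2534 to 2995 CPM for mitosis genes.

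Against absorptive cells, 1196 of 5321 genes were higher in members (22.5%) and 727 lower (13.7%), 36.1% in either direction. Of the stem and Wnt target genes 16 of 17 were higher, as were 12 of 12 replication genes and 11 of 11 ribosome biogenesis genes, and 18 of 18 late absorptive genes were lower. Rgcc, a regulator of cell cycle progression, was at 218, 134 and 140 CPM in members and 0, 5.06 and 5.45 CPM in absorptive cells. The basolateral chloride importer Slc12a2 was at 363, 346 and 373 CPM against 5.67, 19.9 and 16.5 CPM. Cldn2, which forms cation-permeable tight junctions, was at 99.3, 173 and 164 CPM against 1.26, 7.79 and 9.80 CPM. These genes were many-fold higher in crypt cells of every library, and so was Phgdh, which catalyzes the entry step of serine synthesis, at 126, 143 and 125 CPM against 1.89, 11.4 and 6.54 CPM.

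The genes lower in members included those of surface absorption. Aqp8, a water and peroxide channel, was at 0.401, 4.06 and 1.19 CPM in members and 1095, 424 and 533 CPM in absorptive cells. Car4, a membrane-anchored carbonic anhydrase, was at 0.20, 8.36 and 8.90 CPM against 1205, 656 and 705 CPM, and 1 cell held 58.6% of the Car4 UMIs of members in mucosa 3. Cdkn1a, which encodes the cell cycle inhibitor p21, was at 33.6, 54.1 and 44.4 CPM against 796, 793 and 664 CPM. In mucosa 1 the members held less of both surface transport genes than in the other libraries, and the cytosolic carbonic anhydrase gene Car1 showed the same order, at 67.7, 1965 and 1928 CPM in members against 3132, 37582 and 38942 CPM in absorptive cells.

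Against goblet cells, 432 of 5276 genes were higher in members (8.19%) and 534 lower (10.1%), 18.3% in either direction. All 14 goblet genes outside the gate were lower, 9 of 17 stem and Wnt target genes were higher, and 11 of 12 replication genes were higher. Otc, an enzyme of the urea cycle, was at 35.4, 43.1 and 66.3 CPM in members and 2.52, 5.96 and 6.55 CPM in goblet cells. Jaml, an adhesion molecule of the junctional family, was at 26.4, 22.8 and 24.6 CPM against 1.01, 3.92 and 2.93 CPM. Both were higher in crypt cells in all 3 libraries, while the goblet lectin Zg16 was at 13.9, 118 and 48.1 CPM in members and 6461, 22082 and 22596 CPM in goblet cells. Spdef, a transcription factor of goblet maturation, was at 16.2, 19.6 and 13.3 CPM against 344, 328 and 420 CPM.

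The 2885 crypt cells held 39952600 UMIs over 17449 of 32285 genes, and ribosomal protein genes took 31.3%, 25.4% and 26.6% of them. Outside genes with Rpl or Rps symbols and mitochondrial genes, the 15 highest included the peptidyl-prolyl isomerase Ppia (5780, 4340 and 5511 CPM), the chromatin protein Ptma (4308, 4323 and 4332 CPM), the epithelial lectin Lgals4 (3087, 3667 and 3765 CPM) and the MHC class II invariant chain Cd74 (3089, 3412 and 3103 CPM). The others were Reg3b, Gm42418, Eef1a1, Tpt1, Fau, Hsp90ab1, Malat1, Txn1, Gpx2, Chchd2 and Fth1, of which Fau also encodes a ribosomal protein and Gm42418 overlaps ribosomal RNA and is uncertain as a gene. Levels in CPM were read at the 3' end and are not scaled by gene length.

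The parts of the chloride secretion route were all measured. The potassium channel subunits Kcnq1 and Kcne3, which recycle potassium at the basolateral side, were at 42.4, 44.7 and 53.3 CPM and at 261, 285 and 290 CPM. Kcnn4, a calcium-activated potassium channel, was at 82.0, 75.4 and 77.3 CPM. Clca3b, a gene of the secreted chloride channel accessory family, was at 607, 377 and 338 CPM, and Car2, which supplies bicarbonate, at 450, 265 and 276 CPM. The potassium channel genes were alike in the 3 libraries, while Clca3b and Car2 were higher in mucosa 1.

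The subunits that work with Nox1 were measured together with it, namely the organizer Noxo1 at 103, 103 and 111 CPM, the activator Noxa1 at 95.5, 120 and 110 CPM and the membrane partner Cyba at 376, 369 and 417 CPM. Hes1, the Notch target that represses Atoh1, was at 189, 111 and 142 CPM. Sox9, a Wnt target and transcription factor of crypt base cells, was at 89.5, 91.2 and 83.9 CPM, and Myc at 42.1, 35.9 and 41.0 CPM. Pigr, which carries IgA across the epithelium, was at 1627, 1478 and 1530 CPM. Of these only Hes1 differed by more than 1.5-fold between libraries.

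Most genes differed little between the crypt cells of the 3 mice. Of 5477 genes with at least 20 CPM in the highest library, 251 (4.58%) differed more than 2-fold between the highest and the lowest, and the median ratio was 1.26. The 10 with the largest ratios were Iglc1, Igha, Igkc, Jchain and Ighg2b, which are immunoglobulin genes or their joining chain, Gcg and Pyy, which are enteroendocrine hormones, and Osr2, Prap1 and Saa1. Osr2, a zinc finger transcription factor, was at 0.301, 52.0 and 49.4 CPM, with 3 UMIs in 1 cell of mucosa 1 against 641 and 871 UMIs in mucosa 2 and 3. Prap1, a secreted proline-rich protein, was at 0.401, 25.1 and 26.5 CPM. Both were low in mucosa 1, of mouse C, and like each other in the other mice.

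Some of these genes came from few cells. In mucosa 2 and 3 the 10 highest cells held 93.2% and 90.2% of the 12493 and 9948 immunoglobulin UMIs, and mucosa 1 had 46 such UMIs in all. In mucosa 3 a single cell held 98.5% of Gcg and 91.0% of Pyy UMIs. Hemoglobin UMIs, the markers of red cells, lay to 96.1%, 91.6% and 87.4% in the 10 highest cells of mucosa 1, 2 and 3. The other cells were not free of immunoglobulin UMIs, since only 49.3% and 51.0% of members in mucosa 2 and 3 had none.

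Reg3b, an antibacterial lectin and the highest gene by mean, was spread over many cells instead. It was at 1125, 15259 and 9941 CPM, with no UMI in 64.4%, 0.763% and 8.42% of cells and a median of 0, 53 and 49 UMIs per cell. Mucosa 1 was low although its cells were the most deeply sequenced. Car1 had no UMI in 89.5%, 14.2% and 34.9% of cells.

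Hox genes, which record position along the gut axis, separated mucosa 1 from the others. Hoxa9 was at 58.4, 12.4 and 11.7 CPM and Hoxa10 at 45, 7.63 and 6.97 CPM, both highest in mucosa 1, while Hoxb7 was at 15.5, 71.4 and 80.7 CPM, lowest there. After these values were seen, crypt cells were classed by at least 2 UMIs of posterior Hox genes (Hoxa10, Hoxa11, Hoxa13 and Hoxd10 to Hoxd13) with none of Hoxb5 to Hoxb8, or the reverse. Posterior cells were 27.1%, 2.29% and 3.37% of members (124, 27 and 42 cells) and anterior cells 5.46%, 45.7% and 60.5% (25, 539 and 755 cells). Cells with at least 1 UMI of each set were 26.0%, 3.73% and 5.13% (119, 44 and 64 cells), in mucosa 1 about as many as the posterior cells, and cells with neither class of Hox UMI were 19.0%, 20.7% and 13.9%. Every library thus held crypt cells of both classes, in different shares, and which stretch of colon was sampled is not given in the labels.

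Between these classes, 38 of 4776 genes were at least 2-fold higher in posterior cells of all 3 libraries (0.796%) and 7 were lower (0.147%), 0.942% in either direction, a description with no test, in which Hox genes were used by the classes. Hoxb13, the most posterior gene of its cluster and outside both sets, was at 85.2, 245 and 320 CPM in posterior cells and 9.09, 1.84 and 1.70 CPM in anterior cells. Muc3, a membrane mucin, was at 176, 452 and 387 CPM against 20.5, 73.6 and 51.7 CPM. Aqp4, a basolateral water channel, was at 319, 346 and 351 CPM against 68.2, 74.9 and 69.1 CPM. Within a class the libraries were alike in Aqp4, although over all members mucosa 1 was at 215 CPM against 103 and 99.2 CPM in mucosa 2 and 3.

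Among the other genes higher in posterior cells were Anxa3, an annexin, at 46.0, 117 and 149 CPM against 6.82, 10.5 and 6.08 CPM, and Ggh, which trims folate polyglutamates, at 59.3, 70.7 and 73.7 CPM against 9.09, 8.85 and 10.3 CPM. The cytokine gene Il18 was at 64.8, 114 and 119 CPM against 18.2, 22.5 and 24.0 CPM. Ly6a, a surface protein raised in regenerating epithelium, was at 344, 832 and 668 CPM against 125, 363 and 230 CPM. Posterior cells were the higher class in each library for all of these, as the 2-fold rule for counting them required.

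The 7 genes lower in posterior cells were Ces1d, Pir, Aqp1, Cd44, H1fx, Sord and Zbtb38. Cd44, a hyaluronan receptor and Wnt target, was at 37.1, 35.4 and 29.5 CPM in posterior and 109, 73.8 and 92.0 CPM in anterior cells. The water channel gene Aqp1 was at 23.4, 16.3 and 17.4 CPM against 56.8, 42.6 and 54.1 CPM. Lgr5 did not go one way, at 17, 2.72 and 21.4 CPM against 59.1, 10.7 and 12.3 CPM. The anterior values of mucosa 1 rest on 25 cells and the posterior values of mucosa 2 on 27. The rule asks for 2-fold in all libraries used, so leaving a library out can only keep or raise the count of 45 genes. It was 171 without mucosa 1 and 79 without mucosa 2. Later comparisons within a class used looser sets, with at least 1 UMI of its Hox genes and none of the other class. These held 203, 67 and 77 posterior cells and 49, 825 and 933 anterior cells.

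**Figure D2:**
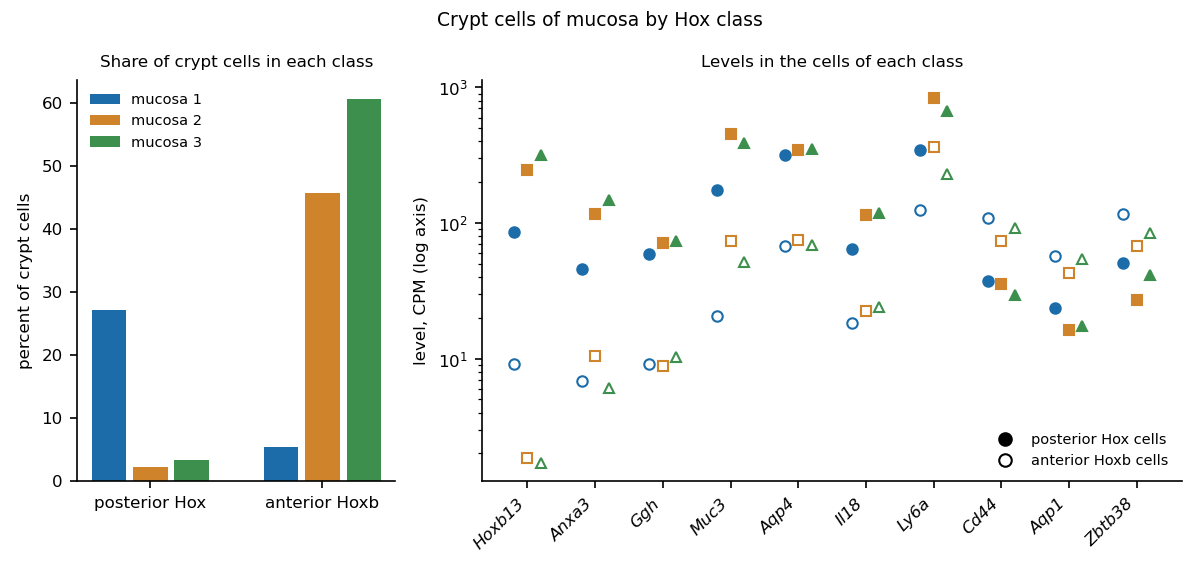
Left, percent of crypt cells in the posterior Hox and anterior Hoxb classes in each mucosa library (bars start at 0). Right, level in CPM (log axis) of 10 genes in posterior cells (filled) and anterior cells (open) of each library, with Hoxb13 to Ly6a higher and Cd44, Aqp1 and Zbtb38 lower in posterior cells of all 3 libraries.

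Which genes accompany Lgr5 within the crypt cells was asked by comparing members with at least 2 Lgr5 UMIs (71, 23 and 55 cells) with members that had none (314, 1061 and 1081 cells), summed per library and tested with the library as a block. Median depths were 20333, 9863 and 12781 UMIs in Lgr5-positive cells and 21606, 9490 and 13486 UMIs in the others. By edgeR's quasi-likelihood test with Benjamini-Hochberg adjustment, 735 of 10497 genes were higher in Lgr5-positive cells (7.0%) and 1173 were lower (11.2%) at an adjusted p of 0.05, 18.2% in either direction, and 46.8% went the same way in all 3 libraries. Stem and Wnt target genes other than Lgr5 were higher in 16 of 20 tested, with 0 lower and a median log2 difference of 1.06 against 0.00 over all genes. Lgr5 itself made the groups and was not tested. A gene that reached the cutoff of the filter on low counts (2.37 CPM here) in 1 group only could be called in 1 direction only. Without the 66 and 68 such genes, 6.87% of 10363 genes were higher and 10.9% lower, 17.8% in either direction, and stem and Wnt target genes were higher in 15 of 19, mitosis genes lower in 8 of 13 and late absorptive genes lower in 12 of 17.

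Smoc2, a matrix protein of crypt base cells, was at 162, 153 and 154 CPM in Lgr5-positive cells and 39.8, 46.8 and 42.1 CPM in Lgr5-zero cells (log2 difference 1.86 ± 0.11 SE, adjusted p = 4.75e-11). Ascl2, a transcription factor that maintains the stem cell state, was at 96.0, 70.0 and 105 CPM against 29.0, 25.1 and 30.8 CPM (1.66 ± 0.13, adjusted p = 6.86e-09). Axin2, a Wnt target that acts in the complex degrading beta-catenin, was at 81.4, 83.2 and 78.1 CPM against 29.2, 26.9 and 24.5 CPM (1.52 ± 0.14, adjusted p = 7.64e-08). In all of these the Lgr5-positive cells had the higher level in every library, where 46.8% of all genes went the same way throughout.

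Ephb3, a receptor that positions cells along the crypt axis, was also higher in every library. It was at 64.9, 87.6 and 62.2 CPM against 19.7, 17.8 and 23.3 CPM (1.65 ± 0.17). Rnf43, which removes Wnt receptors from the surface, was at 49.0, 56.9 and 86.0 CPM against 24.2, 22 and 24.3 CPM (1.36 ± 0.18). The transcription factor gene Sox4 was at 231, 425 and 307 CPM against 107, 166 and 128 CPM (1.17 ± 0.09). Sox9 was at 130, 144 and 164 CPM against 72.6, 85.3 and 75.4 CPM (0.89 ± 0.11), a smaller rise than that of the other genes given here. Cdk6, Cd44 and Slc12a2 also rose, by 1.22 ± 0.12, 1.29 ± 0.14 and 0.92 ± 0.07 on the log2 scale, as did Lrig1, a negative regulator of ErbB receptors (0.97 ± 0.15), and Rgmb, a BMP co-receptor (1.03 ± 0.15).

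Notch and secretory fate genes were higher in 5 of 12 and lower in 1. The receptor gene Notch1 was at 38.2, 48.2 and 45 CPM in Lgr5-positive cells and 18.7, 25.2 and 23.8 CPM in Lgr5-zero cells (0.92 ± 0.18). Hes1 was at 272, 101 and 210 CPM against 157, 107 and 136 CPM (0.59 ± 0.11), higher in mucosa 1 and 3 only. Its call was lost among cells with at least 1 anterior Hoxb UMI and no posterior Hox UMI (16, 18 and 41 Lgr5-positive cells). Foxa3 was at 84.6, 78.8 and 67.5 CPM against 36.7, 37.9 and 40.8 CPM (0.97 ± 0.14).

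Among MHC class II and interferon genes 4 of 16 were higher and 2 lower, with the class II chain H2-Eb1 at 1166, 1038 and 1134 CPM against 768, 618 and 722 CPM (0.61 ± 0.06). Immediate early and heat shock genes were higher in 6 of 13 and lower in 1. Jun was at 327, 534 and 503 CPM against 118, 287 and 245 CPM (1.11 ± 0.09), and Egr1 at 60.4, 43.8 and 56.9 CPM against 18.5, 23.9 and 33.1 CPM (1.18 ± 0.19). In each library Lgr5-positive cells had the higher level of both genes.

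**Figure D3:**
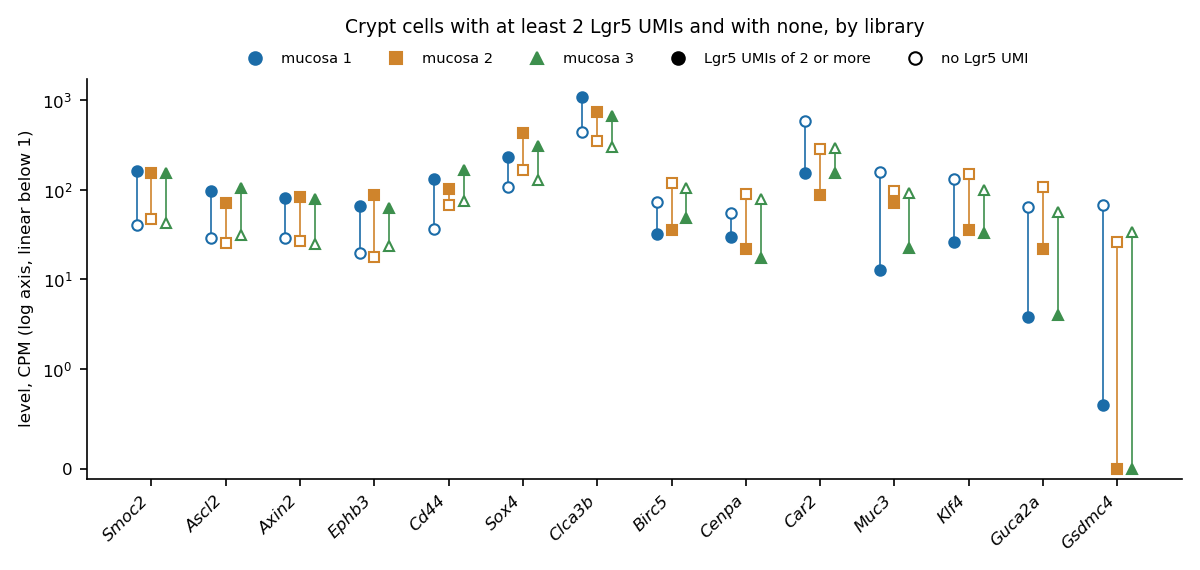
Level in CPM (log axis, linear below 1) of 14 genes in crypt cells with at least 2 Lgr5 UMIs (filled) and with none (open), joined within each mucosa library. Stem genes such as Smoc2 are higher and mitosis and absorptive genes such as Birc5 and Guca2a lower in Lgr5-positive cells of all 3 libraries.

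Among members, Lgr5-positive cells were lower in mitosis genes (8 of 14 lower, 0 higher), while 1 of 17 replication genes was higher and 0 lower. The gate had already removed cells with more Mki67 and Top2a UMIs, and the cycling cells so removed also held Lgr5. The mitosis result therefore covers only cells under that cut. Whether Lgr5-expressing cells of the whole crypt divide less was not tested. Birc5, the survivin subunit of the chromosomal passenger complex, was at 31.8, 35.0 and 47.7 CPM against 72.2, 118 and 105 CPM (log2 difference -1.28 ± 0.14). Cenpa, the centromeric histone, was at 29.9, 21.9 and 17.2 CPM against 54.5, 88.9 and 77.9 CPM (-1.43 ± 0.20). The replication gene that rose was Mcm6, at 92.8, 153 and 82.1 CPM against 56.7, 88.1 and 63.9 CPM (0.56 ± 0.12), a call lost without mucosa 1. Ribosome biogenesis genes were higher in 7 of 12, such as the nucleolar chaperone Npm1 at 2439, 2338 and 2732 CPM against 1496, 1551 and 1753 CPM (0.60 ± 0.05).

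Late absorptive genes were lower in 13 of 18 and higher in 0, with a median log2 difference of -1.86. Guca2a was at 3.82, 21.9 and 3.97 CPM in Lgr5-positive cells and 63.7, 107 and 56.3 CPM in Lgr5-zero cells (-3.61 ± 0.27). Klf4, a transcription factor of differentiated epithelium, was at 26.1, 35.0 and 33.1 CPM against 132, 150 and 98.5 CPM (-2.12 ± 0.16). Krt20, a keratin of mature cells, was at 0.636, 4.38 and 3.97 CPM against 20.4, 45.5 and 17.3 CPM (-3.49 ± 0.44). In mucosa 1 the 10 highest of 458 members held 93.6% of the 141 Krt20 UMIs. Lgr5-positive cells were the lower in every library for Guca2a, Klf4 and Krt20. Gsdmc4, a gasdermin gene, was at 0.636, 0 and 0 CPM against 67.2, 26.0 and 33.7 CPM and reached the cutoff in Lgr5-zero cells only. The amino acid transporter gene Slc6a14, the glutathione transferase gene Gsta1 and the glycosyltransferase gene Mgat4c fell by 5.22 ± 0.43, 4.78 ± 0.36 and 4.37 ± 0.24.

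Ion and water transport genes that reached the cutoff in both groups went both ways, with 5 of 19 higher and 7 lower. Clca3b was at 1065, 731 and 661 CPM in Lgr5-positive cells and 444, 345 and 301 CPM in Lgr5-zero cells (1.12 ± 0.07). Kcnq1 was at 66.1, 83.2 and 82.1 CPM against 32.8, 42.1 and 49.5 CPM (0.84 ± 0.14). Car2 was at 153, 87.6 and 154 CPM against 580, 281 and 292 CPM (-1.59 ± 0.13). Clca3b and Kcnq1 were higher and Car2 lower in Lgr5-positive cells of every library. Aqp4 fell by 1.38 ± 0.17, but its difference was -0.12 among cells with at least 1 anterior Hoxb UMI and no posterior Hox UMI. That value rests on 16, 18 and 41 Lgr5-positive cells.

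Of the markers that label the population, Nox1 was at 110, 52.5 and 87.4 CPM in Lgr5-positive and 64.4, 46.9 and 47.4 CPM in Lgr5-zero cells (0.70 ± 0.13), and Sult1a1 at 113, 280 and 303 CPM against 276, 265 and 429 CPM (-0.75 ± 0.14), a call not made by DESeq2. Sult1a1 was lower in mucosa 1 and 3 and slightly higher in mucosa 2. Of 18 aldehyde, sulfate and glutathione metabolism genes, 12 were lower and 1 higher. Reg3b was at 380, 4531 and 3511 CPM against 1487, 16385 and 10680 CPM (-1.85 ± 0.06), so the ratio between cells was similar in mucosa 1 and in the libraries where the gene is high.

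Other genes named by the size of their rise included Scn2b, a sodium channel subunit, at 19.1, 65.7 and 34.4 CPM against 5.83, 6.71 and 7.68 CPM (2.19 ± 0.27), and Agr3, a disulfide isomerase relative, at 20.4, 21.9 and 23.8 CPM against 4.96, 6.27 and 6.45 CPM (1.89 ± 0.26). Jaml was at 55.3, 105 and 62.2 CPM against 15.9, 19.5 and 18.5 CPM (1.86 ± 0.18). Timp2, a metalloproteinase inhibitor, rose by 1.80 ± 0.26 and Tenm4, a teneurin, by 1.77 ± 0.27.

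Markers of other cells moved in a few barcodes. The chemokine gene Ccl5 rose by 2.31 ± 0.38, but 1 Lgr5-positive cell held 95.3% of its UMIs in mucosa 1 and 1 held 51.5% in mucosa 2, and Cxcl9 rose by 1.78 ± 0.34 with 88.9% and 100% in 1 cell. Both calls were lost without mucosa 2. T cell list genes summed to 61.7 to 263 CPM in Lgr5-positive cells and 2.62 to 52.3 CPM in Lgr5-zero cells, and all 4 erythrocyte genes tested were lower, with the hemoglobin gene Hbb-bs at 21.0, 39.4 and 76.8 CPM against 597, 260 and 1199 CPM. The part of such barcodes in other results was not tested.

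The count of 1908 genes was 1077 without mucosa 1, 1185 without mucosa 2 and 485 without the block. Of the stem and Wnt target genes, 14 to 16 were higher and 0 lower under each alternative tried. These include cells of matched depth (15 of 17) and the looser set of anterior Hoxb cells, with at least 1 Hoxb UMI (14 of 17). For stem, mitosis, late absorptive and ribosome biogenesis genes, 0 went against the direction given at an unadjusted p under 0.05 or by DESeq2. DESeq2 called fewer genes in the direction given, with 5 mitosis genes, 10 late absorptive genes and 8 aldehyde, sulfate and glutathione genes lower, and 14 stem and Wnt target genes, 4 ribosome biogenesis genes and 3 immediate early and heat shock genes higher.

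Entry into the secretory lineage was examined through Atoh1, which had a UMI in 6.77%, 6.44% and 6.50% of members (31, 76 and 81 cells), or 2.77%, 4.28% and 3.64% after thinning to 5000 UMIs. T cells had an Atoh1 UMI in 0.572%, 1.92% and 0.747% of cells at their lower depth. Against the 427, 1104 and 1166 members without Atoh1, summed per library with the library as a block, 392 of 10767 genes were higher (3.64%) and 407 lower (3.78%) by edgeR at an adjusted p of 0.05, 7.42% in either direction, and 40.4% went the same way in all 3 libraries. Goblet genes outside the gate were higher in 12 of 14 and lower in 0 (also at an unadjusted p under 0.05 and by DESeq2), with a median log2 difference of 3.24 against -0.00 over all genes. Without the 45 and 41 genes that reached the cutoff of the filter (1.90 CPM) in 1 group only, 3.43% of 10681 genes were higher and 3.8% lower, 7.23% in either direction, and goblet genes were higher in 11 of 13 and Notch and secretory fate genes in 8 of 12. Atoh1 made the groups and was not tested, and the gate removed cells of 10 or more Muc2 UMIs.

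Notch and secretory fate genes other than Atoh1 were higher in 9 of 13 and lower in 2, with a median log2 difference of 1.56. Spdef was at 108, 137 and 140 CPM in Atoh1-positive cells and 9.66, 10.7 and 4.13 CPM in the others (log2 difference 4.09 ± 0.24, edgeR adjusted p = 4.44e-08). The Notch ligand Dll1 was at 24.0, 20.6 and 45.7 CPM against 3.22, 3.32 and 3.58 CPM (3.18 ± 0.27), and Dll4 at 30.0, 16.0 and 33.0 CPM against 2.25, 2.01 and 2.37 CPM (3.55 ± 0.29). Atoh1-positive cells had the higher level in every library for these genes, where 40.4% of all genes went the same way throughout. Creb3l1, which drives secretory capacity, was at 207, 275 and 205 CPM against 62.4, 61.1 and 51.0 CPM (1.98 ± 0.10), and Foxa3 and Foxa2, forkhead factors, rose by 1.56 ± 0.11 and 1.71 ± 0.22. Gfi1, which represses the enteroendocrine path, was at 6.01, 6.86 and 7.61 CPM against 0.322, 0.349 and 0.182 CPM, and reached the cutoff in Atoh1-positive cells only.

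Goblet products were present below goblet cell levels. Tff3, the trefoil peptide, was at 460, 494 and 624 CPM in Atoh1-positive cells and 21.7, 25 and 19.7 CPM in the others (4.58 ± 0.12, edgeR adjusted p = 9.43e-12). Agr2, the isomerase that folds mucin, was at 4283, 5309 and 4656 CPM against 768, 569 and 448 CPM (3.02 ± 0.12). Spink4, a protease inhibitor of goblet cells, was at 617, 1104 and 1172 CPM against 83.7, 98.8 and 59.7 CPM (3.57 ± 0.18). These rose in each library, and so did Hepacam2, an adhesion protein of the immunoglobulin family, Cbfa2t3, a transcriptional corepressor, and Ramp1, a receptor activity-modifying protein, by 3.93 ± 0.18, 3.90 ± 0.21 and 4.81 ± 0.24. A rise in each library was a condition for naming Hepacam2, Cbfa2t3 and Ramp1. The mucus protein Fcgbp was at 13.5, 90.3 and 104 CPM against 3.33, 15.5 and 5.77 CPM (3.19 ± 0.29).

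**Figure D4:**
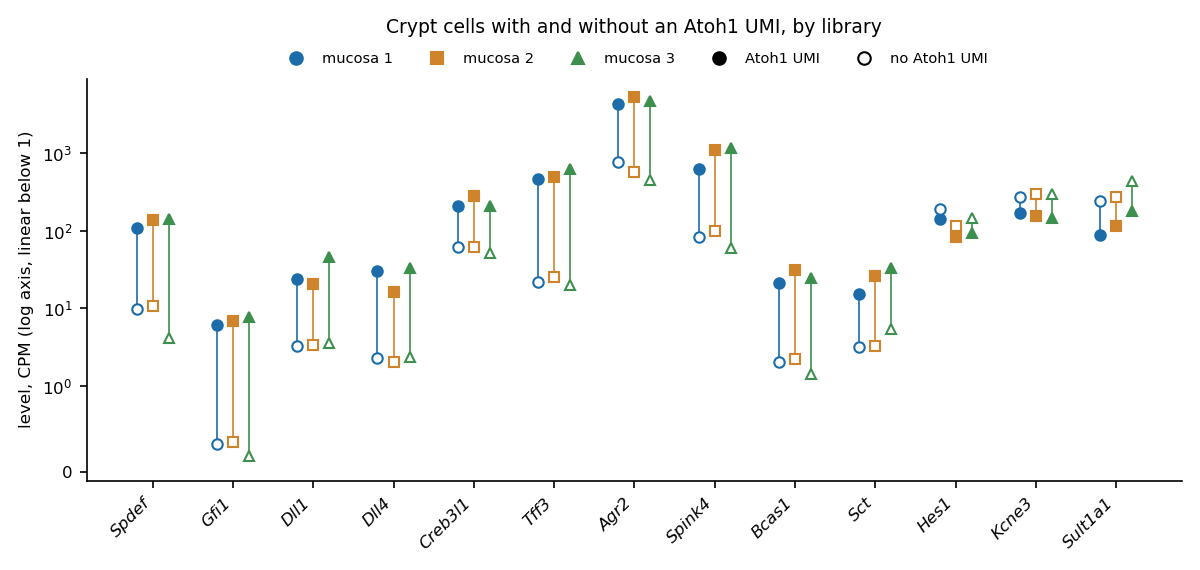
Level in CPM (log axis, linear below 1) of 13 genes in crypt cells with an Atoh1 UMI (filled) and without one (open), joined within each mucosa library. Spdef, Dll1 and Tff3 are higher and Kcne3 and Sult1a1 lower in Atoh1-positive cells of all 3 libraries.

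Few genes of other secretory lineages could be tested. Of 10 enteroendocrine genes 2 were tested and 1 was higher, of 8 tuft genes 1 was tested, which reached the cutoff in Atoh1-positive cells only, and of 5 Paneth genes 1 was tested and was not called by edgeR or DESeq2. Sct, the secretin gene of enteroendocrine cells, was at 15, 26.3 and 33.0 CPM against 3.11, 3.23 and 5.34 CPM (2.67 ± 0.25), where 1 cell without Atoh1 held 76.1% of that group's Sct UMIs in mucosa 3, and the tuft list gene Lrmp at 4.51, 16.0 and 9.30 CPM against 1.07, 1.22 and 1.21 CPM. Guca2a and Guca2b, the hormones of the guanylate cyclase, were the late absorptive genes that rose, by 1.59 ± 0.12 and 2.43 ± 0.13, while 10 others of the 18 tested fell (5 by DESeq2).

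Stem and Wnt target genes had 1 of 20 higher and 1 lower, while edgeR called 0 of 14 mitosis and 0 of 17 replication genes (0 and 2 at an unadjusted p under 0.05, and 0 and 0 by DESeq2). Ion and water transport genes fell in 8 of 19 (2 by DESeq2) and rose in 0 by either tool or at an unadjusted p under 0.05, among them Kcne3 at 170, 153 and 146 CPM against 268, 295 and 300 CPM (-0.90 ± 0.09). Sult1a1 was at 88.6, 113 and 180 CPM against 241, 274 and 435 CPM (-1.32 ± 0.09). Hes1 was at 140, 82.3 and 93.0 CPM against 192, 113 and 145 CPM (-0.53 ± 0.09), lower in each library, a call lost without mucosa 3 and at matched depth. Reg3b was at 51.1, 6924 and 3354 CPM against 1202, 15896 and 10414 CPM (-2.04 ± 0.33), a call not made by DESeq2. Of the markers of other cells, B and plasma cell genes summed to 6.01 to 5009 CPM in Atoh1-positive and 4.29 to 602 CPM in Atoh1-zero cells, and erythrocyte genes to 25.5 to 2592 CPM against 427 to 1471 CPM with 1 of 4 lower. Of the T cell genes 2 of 5 were lower (1 by DESeq2). Their part in the other results was not tested.

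The count of 799 genes was 472 without mucosa 2, 317 without mucosa 3 and 136 without the block, of which 122 were higher and 14 lower. Among the genes that lost their call without the block were Reg3b, Sult1a1 and Hes1, while 9 goblet genes kept a call of higher.

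The tumor libraries held 443 cells that passed the same gate, 19 to 78 per tumor and 1.46% to 4.60% of epithelial barcodes. What the gate selects in tumors was compared with mucosa in the 9 tumors with at least 20 such cells, and tumor 8, with 19, was left out. Median depths were 15404 to 23822 UMIs in the 10 tumors, and median mitochondrial shares were 3.05% to 10.1% there against 3.64%, 4.59% and 4.32% in mucosa. With cells under 10% mitochondrial UMIs only, 2600 genes were called, against 3082 in all. By edgeR's quasi-likelihood test, 1643 of 9263 genes were higher in tumors (17.7%) and 1439 lower (15.5%), 33.3% in either direction, and 1627 had tissues that did not overlap (17.6%). The cutoff of the filter on low counts was 7.81 CPM. It was reached in tumors only by 1037 of these genes, for which higher was the only possible call, and in mucosa only by 32. Such genes are described by their levels alone, and counts over lists leave them out. Of the 8194 others, 12.3% were higher and 17.2% lower, 29.5% in either direction. The gate set only a floor for its own genes, given here without a test. Aldh1b1 was at 74.4 to 129 CPM in tumors (median 104) against 306, 484 and 404 CPM in mucosa, and Cftr at 78.4 to 106 CPM (median 93.9) against 115, 114 and 120 CPM, so tumor cells passing the gate held less of both. Sult1a1, which the gate did not use, was at 5.22 to 54.5 CPM in tumors (median 23.4) against 231, 263 and 418 CPM in mucosa (log2 difference -3.66 ± 0.37, adjusted p = 3.01e-06).

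Stem and Wnt target genes were higher in 6 of 18 and lower in 2. Lgr5 was at 25.8 to 119 CPM in tumors (median 60.3) and 28, 11.8 and 13.4 CPM in mucosa (1.80 ± 0.38, edgeR adjusted p = 0.00186), and the lowest tumor lay below mucosa 1. Smoc2 was at 102 to 195 CPM (median 123) against 72.5, 53.9 and 54.6 CPM (1.05 ± 0.19, adjusted p = 0.000529). Rnf43 was at 42.2 to 106 CPM (median 73.7) against 29.9, 23.4 and 28.4 CPM (1.33 ± 0.22), with no overlap. Sox9 was at 117 to 201 CPM (median 151) against 89.5, 91.2 and 83.9 CPM (0.75 ± 0.15). Axin2 was at 29.5 to 151 CPM (median 87.1) against 44.6, 30.6 and 29.7 CPM (1.28 ± 0.30), and its lowest tumor lay below all 3 mucosa libraries. The list did not move as one. Ascl2 was at 19.7 to 72.0 CPM (median 35.1) against 48.7, 28.5 and 36.7 CPM (-0.11 ± 0.27, edgeR adjusted p = 0.799). Cdk6 was at 16.9 to 41.8 CPM (median 30.8) against 54.8, 59.7 and 56.0 CPM (-1.06 ± 0.18). Its call was lost against the looser set of posterior mucosal cells. Myc was at 10.6 to 33.3 CPM (median 22.6) against 42.1, 35.9 and 41.0 CPM (-0.95 ± 0.22).

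Secreted and intracellular Wnt feedback inhibitors were near 0 in mucosal crypt cells, where 6 of the 7 were under 1 CPM in every library. The 4 tested reached the cutoff in tumors only. Notum, which strips the lipid from Wnt ligands, was at 1.41 to 75.5 CPM in tumors (median 22.9) against 0.20, 0.243 and 0.170 CPM. Nkd1, which acts on Dishevelled, was at 11.3 to 269 CPM (median 61.7) against 1.70, 1.95 and 1.93 CPM. Wif1, a secreted Wnt-binding protein, was at 4.22 to 150 CPM (median 54.7) against 0.301, 0.0811 and 0.0567 CPM. Every tumor lay above every mucosa library for these genes, as for Dkk2, at 9.85 to 56.1 CPM (median 24.5) with 0 UMIs in mucosa, at least 351-fold higher against a floor of 3 counts over the mucosa group.

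Cdkn2a, whose locus encodes p16 and p19Arf and carries the engineered promoter, had 0 UMIs in the mucosal crypt cells, which allows 0.0751 CPM at 3 counts over the group. The tumor cells held 230 UMIs, at 5.01 to 41.7 CPM (median 26.2), at least 311-fold higher, and these counts do not separate the transcripts. Cdkn1a was at 64.0 to 227 CPM (median 126) against 33.6, 54.1 and 44.4 CPM (1.47 ± 0.29). Cdkn1b was lower, at 26.7 to 52.1 CPM (median 36.0) against 46.7, 63.5 and 54.3 CPM (-0.67 ± 0.15). Neither Cdkn1a nor Cdkn1b was still called against the looser set of posterior mucosal cells. Replication genes were lower in 11 of 15 and higher in 0, among them Mcm6 at 20.0 to 51.6 CPM (median 30.1) against 67.9, 90.7 and 66.6 CPM (-1.21 ± 0.18).

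**Figure D5:**
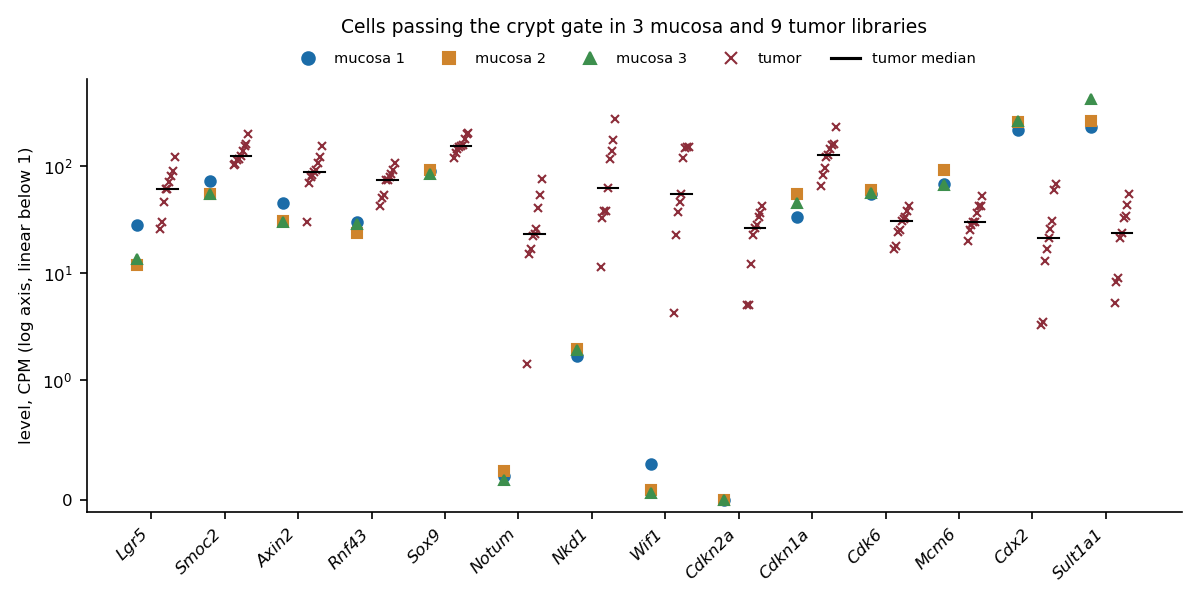
Level in CPM (log axis, linear below 1) of 14 genes in cells passing the crypt gate, with 3 mucosa libraries and 9 tumor libraries as points and the tumor median as a line. Notum, Nkd1, Wif1 and Cdkn2a lie higher in all 9 tumors, and Cdx2 and Sult1a1 lower, than in the 3 mucosa libraries.

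Of the 10 fetal-like and tumor epithelium genes, 6 were under 1 CPM in every mucosa library. That list, which includes Ptn, Mt4 and Krt7, was made with earlier results of these data known. The 5 Paneth genes summed to 1.30 to 5.95 CPM in mucosa. Of those tested, 5 of 9 fetal-like and tumor epithelium genes and 4 of 4 Paneth genes reached the cutoff in tumors only. Of the other 4 fetal-like and tumor epithelium genes, 3 were higher. Clu, the clusterin gene, was at 19.0 to 233 CPM (median 96.8) against 0.601, 0.325 and 0.227 CPM, and the metalloproteinase Mmp7 at 54.9 to 867 CPM (median 195) against 0.801, 2.35 and 2.49 CPM. Lyz1, the Paneth lysozyme, was at 0 to 5211 CPM (median 117) against 0.10, 0.325 and 2.21 CPM, the widest range among tumors of the genes named here. Krt7, a keratin of simple epithelia, was at 220 to 391 CPM (median 297) against 114, 134 and 165 CPM (1.05 ± 0.19). The intestinal transcription factor gene Cdx2 went the other way, at 3.27 to 66.7 CPM (median 21.3) against 214, 257 and 258 CPM (-3.31 ± 0.44, edgeR adjusted p = 3.8e-05). Apart from Lyz1, tumors and mucosa did not overlap in any of these. Hoxb13 was at 12.0 to 316 CPM (median 255) against 58.3, 23.9 and 36.3 CPM (2.46 ± 0.58). Against mucosal cells with at least 1 posterior Hox UMI and none of Hoxb5 to Hoxb8, its log2 difference was 0.22 and no longer called.

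Transport and metabolic genes that reached the cutoff in both tissues were lower where called. Slc4a4, a basolateral bicarbonate importer, was at 12.2 to 35.8 CPM (median 26.9) against 61.3, 81.7 and 73.8 CPM (-1.58 ± 0.18). Ano1, a calcium-activated chloride channel, was at 16.7 to 42.7 CPM (median 24.4) against 2.0, 2.19 and 2.49 CPM. Otc was at 0 to 5.01 CPM (median 1.41) against 35.4, 43.1 and 66.3 CPM, and reached the cutoff in mucosa only. Every tumor lay below every mucosa library for Slc4a4 and Otc, and Otc was among the genes picked on that basis. Of the transport genes 7 of 16 were lower, and of the aldehyde, sulfate and glutathione genes 6 of 14. By edgeR 0 of either were higher (1 and 0 at an unadjusted p under 0.05, and 0 and 0 by DESeq2), while 3 and 2 others, Ano1 among the former, reached the cutoff in tumors only.

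One-carbon metabolism and DNA methylation genes were lower in 7 of 23 and higher in 3, beside 17.2% lower and 12.3% higher over all such genes. The maintenance methyltransferase Dnmt1 was at 26.7 to 40.9 CPM (median 33.8) against 45.2, 64.5 and 53.5 CPM (-0.79 ± 0.15), and Tet2, which oxidizes methylcytosine, at 14.1 to 31.4 CPM (median 24.5) against 9.72, 11 and 10.8 CPM (1.13 ± 0.18). Cbs, which draws homocysteine into cysteine synthesis, was at 28.4 to 60.5 CPM (median 37) against 65.8, 93.6 and 81.5 CPM (-1.10 ± 0.18). The tissues did not overlap for Dnmt1, Tet2 and Cbs. Ggh was at 49.1 to 234 CPM (median 80) against 36.7, 13.1 and 17.8 CPM (2.04 ± 0.45). Against mucosal cells with at least 1 posterior Hox UMI and none of Hoxb5 to Hoxb8, its log2 difference was 0.74 and no longer called.

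Of the MHC class II and interferon genes, 8 of 15 were lower and 1 higher. Ciita, the master regulator of MHC class II, was at 3.14 to 13.9 CPM (median 7.81) against 18.5, 25.9 and 37.0 CPM (-1.96 ± 0.28), and Cd74 at 448 to 2691 CPM (median 1201) against 3089, 3412 and 3103 CPM (-1.28 ± 0.33). Immediate early and heat shock genes, which respond to handling of tissue, were higher in 12 of 13, with 3 more that reached the cutoff in tumors only. Atf3 was at 103 to 588 CPM (median 285) against 12.8, 6.17 and 5.89 CPM (5.15 ± 0.50), and Hspb1, a small heat shock protein and one of the 3, was at 18.0 to 83.0 CPM (median 50.1) against 0.10, 0.243 and 0.17 CPM. Myeloid genes summed to 106 to 628 CPM in tumors and 95.9 to 109 CPM in mucosa, B and plasma cell genes to 72.8 to 4625 CPM against 4.41 to 894 CPM, erythrocyte genes to 2.24 to 41.3 CPM against 399 to 1547 CPM, and 0 of 8 fibroblast and endothelial genes passed the filter. The part of these in the other differences was not tested.

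Genes with high levels in tumors that reached the cutoff there only included Mgp, a matrix Gla protein, at 11.2 to 391 CPM (median 103) against 0, 0.0811 and 0 CPM, Onecut2, a transcription factor, at 8.44 to 289 CPM (median 51.5) against 0, 0 and 0.113 CPM, and the lipoxygenase gene Alox12, at 4.22 to 74.8 CPM (median 31.8) with 0 UMIs in mucosa, at least 509-fold higher. Every tumor lay above every mucosa library for these, which was a condition for naming them.

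The count of 3082 genes was 2014 without mucosa 3. It was 1738 against the looser set of posterior mucosal cells, with at least 1 posterior Hox UMI (203, 67 and 77 cells). There 1629 of the 2882 genes still tested kept their call and 17 changed sign. Of the genes named, Cdk6, Cdkn1a, Cdkn1b, Hoxb13 and Ggh were no longer called against posterior mucosal cells. With at least 5 UMIs of Cftr and Aldh1b1, 22 of 2970 changed sign. Replication genes lower in tumors numbered 5 of 15 without mucosa 2 and 6 of 15 against posterior mucosal cells. For replication and for immediate early and heat shock genes, which had 0 called in the other direction by edgeR, 0 went that way at an unadjusted p under 0.05 or by DESeq2 as well.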

How the data were processed

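The authors prepared 10x Genomics 3' v3.1 libraries and deposited unnormalized UMI counts per gene and barcode, made with Cell Ranger 6.0.0 on mm10 per the labels. Retained barcodes had 500 or more UMIs, 200 or more genes and a mitochondrial share under 25%. Doublets were scored by simulated pairs, marked up to 0.8% per 1000 barcodes (3, 68 and 42 members), kept, and removed as an alternative. Counts were summed per library and population and scaled to CPM over all genes.

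Tested comparisons used edgeR 4.0.16 (R 4.3.3), filterByExpr, TMM and quasi-likelihood, with the library as a block for splits within mucosa and no block for tumors. Sums had at least 20 cells, except for Lgr5-positive cells under some alternatives. These sums held 16 and 18 anterior Hox cells in mucosa 1 and 2. With at least 5 UMIs of Cftr and Aldh1b1, the sum of mucosa 2 held 17 cells. The steps were tested on simulated data. Genes that reached the filter's cutoff in 1 group only were counted apart, a choice made after values were seen. DESeq2 1.42.0 was an alternative. Across 9273 genes, which are not independent replicates, deviations from group means correlated between the mucosa and tumors of a mouse at r = 0.252 for mouse A, 0.00198 for mouse B and 0.205 for mouse C. Same-mouse tissues come from 1 animal, so the mouse pairs them. The block by mouse changed the count of tumor calls from 3082 to 3087, and 2904 of the 3082 kept their call.

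Members and lists were chosen with earlier results of these data known, and the Hox classes, the 10000 to 30000 UMI window and the Hox-restricted alternatives after values here were seen. Named genes were list members, the 10 largest changes per direction with at least 20 CPM and libraries that did not overlap (or went one way), the 15 highest levels, or the 10 largest spreads between libraries. Promoter and protein sequences were not used here. A few genes of the lists are not reported here.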

Additional observations from a re-analysis of the deposited data

Results flagged for a closer look

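Over 39 groups of tumor values, 4 had 1 tumor apart from the others by Dixon's criterion, which chance meets in about 5% of groups. The groups were genes named in the tumor comparison, the share of epithelial cells passing the gate, and their median depth. The 4 flagged were all genes, over 9 tumors. The gap from the others to a single tumor was a large part of the whole range in each. Tumor 1 was high in Lyz1 (5211 CPM, next 2607), tumor 3 in Ggh (234 CPM, next 126) and tumor 9 in Onecut2 (289 CPM, next 91.8). Tumor 6 was low in Hoxb13 (12.0 CPM, next 182), below all 3 mucosa libraries.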

How the results depend on the processing

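Counts of genes called between tumor and mucosa cells (3082) lay at 2014 to 3324 with a library left out, 1570 with at least 5 UMIs of Cftr and Aldh1b1 (3 tumors), 1862 at 10000 to 30000 UMIs, 1738 against posterior Hox mucosa cells and 4397 with no filter on low counts. Counts between Lgr5 groups (1908) were 893 by DESeq2, 485 with no replicate block, 1077 to 1420 with a library left out, 640 at matched depth and 527 in anterior Hox cells. Counts between Atoh1 groups (799) were 437 by DESeq2, 136 with no replicate block (89.7% higher against 49.1%), 317 to 1014 with a library left out, 516 with at least 5 UMIs and 504 at matched depth. The 45 genes between Hox classes were 58 to 171 with a library left out, where the rule allows no fall, and 23 with at least 1 Hox UMI. The posterior and anterior Hox alternatives above also took cells with at least 1 Hox UMI. The log2 difference of Ascl2 between tumor and mucosa, not called, went from -0.30 to 0.13 with a library left out (0.13 without mucosa 1), to 0.085 under 10% mitochondrial UMIs and to 0.34 at 10000 to 30000 UMIs. The cause was not tested, beyond fewer genes and cells in the restricted sets. With no filter the median log2 difference over all genes was -0.15 for Lgr5 and -0.13 for Atoh1. A window of 2000 to 8000 UMIs left no tumor with 20 cells. The other counts stayed within 1.5 times. Over the genes named, 233 of the values under alternatives kept their side of the threshold for Atoh1 and 6 lost it, 540 and 22 for Lgr5, and 800 and 9 for tumors.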
